A study of Drosophila simulans and Drosophila sechellia and Drosophila simulans x Drosophila sechellia with 72 samples.

Results

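Third-instar larvae of Drosophila sechellia were compared with third-instar larvae of its close relative Drosophila simulans by polyA RNA sequencing. D. sechellia is a fruit fly of the Seychelles that lives on noni (Morinda) fruit, whose octanoic acid is toxic to most other flies, while D. simulans is a generalist that breeds in many fruits. Fly larvae digest food with proteases, amylases and lipases secreted in the midgut, detoxify it with cytochrome P450 enzymes and glutathione transferases, and meet microbes with antimicrobial peptides that the Toll and Imd pathways switch on in the fat body.

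The comparison held 12 D. sechellia libraries and 12 D. simulans libraries of the 72 samples in the series, which also covers adults of both species and hybrids of both stages. Each library was made from 1 homogenate of 10 whole larvae that the labels describe as female. Rearing was at 20 °C in a light cycle of 16 h on and 8 h off for every group. In each species, 3 libraries came from each of 4 media histories, given by a pair of letters for the medium of the previous generation and then that of the current one, where S is standard food and O is food with octanoic acid: D. sechellia SS, SO, OS and OO, then D. simulans SS, SO, OS and OO. The labels used here give neither the dose of octanoic acid nor the fly strains. Because nothing says that the 3 libraries of a group came from separate cultures, p-values measure the spread between libraries, which may be partly technical. In libraries of whole animals, a smaller tissue and less RNA per cell cannot be told apart.

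Values were FPKM, a read rate scaled to transcript length and library size, and they were rescaled here so that the median gene was level across the 24 libraries. This step matters, because the deposited columns did not share a scale: the FPKM of the 7836 genes summed to between 1137760 and 1515240 in D. sechellia libraries and to between 442983 and 543443 in D. simulans libraries. Between 407 and 605 genes were listed at 0 per D. sechellia library, against 682 to 805 per D. simulans library. In D. simulans, 4 libraries stood apart. The yolk protein gene Yp1, a marker of adult females, had 34.8 rescaled FPKM in D. simulans OO replicate 1 and at most 0.414 in the other 23 libraries, and that library also had the smallest scaling factor, 0.477. The summed level of 11 testis markers was 70.5 to 197 in the 12 D. sechellia libraries, 389 to 456 in replicate 2 of D. simulans SS, OS and OO, and at most 218 in the other 9 D. simulans libraries. Another set, D. simulans OS replicates 1 and 3 and OO replicate 1, held 9.13 to 12.8 for ple, the tyrosine hydroxylase gene, against 354 to 2385 in the other 9 D. simulans libraries. In these 3 libraries the ecdysone-induced gene ImpE2 was also low (44.7 to 145, below all of the other 9) and the cuticle gene Lcp1 high (15712 to 18825 against 1755 to 11387). The second set is called the 3 libraries low in ple.

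Of the 7836 genes, 6814 were detected well enough in both species to be tested, and 4464 of them differed between D. sechellia and D. simulans larvae (65.5%, limma with Benjamini-Hochberg adjusted p under 0.05). In D. sechellia, 2225 were higher (32.7%) and 2239 were lower (32.9%), with a median log2 difference over all tested genes of -0.01. The differences exceeded 4-fold for 286 genes that were higher and 138 that were lower, and 8-fold for 124 and 57. Beyond 4-fold, 180 of the higher and 71 of the lower genes carried only a CG number. The ranges of the 12 and 12 libraries did not overlap for 914 genes (13.4%), of which 488 (7.16%) were higher and 426 (6.25%) lower in D. sechellia. The split by direction depended on scale: with FPKM as deposited the calls were 3962 higher against 606 lower (median 0.55), and with every library set to the same total 820 were higher and 4632 lower (median -0.69). The same direction was called under all 3 scalings for 820 higher and 606 lower genes of the 6795 tested in each. Another 1829 were called higher under 1 scaling and lower under another. Counts for gene groups are therefore given under all 3 scalings. They are to be read against the counts over all tested genes. Those were 2225 higher and 2239 lower of 6814, 3962 and 606 of 6826 as deposited, and 820 and 4632 of 6931 with equal totals.

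The strongest immune difference was GNBP-like3, which encodes a small protein related to the Gram-negative binding proteins that recognise microbial glucans. Its level in D. sechellia larvae was 571 at the lowest, 1176 at the median and 2652 at the highest, against 0, 0.634 and 2.56 in D. simulans larvae (rescaled FPKM). Every D. sechellia library was far above every D. simulans library, and the gene was 9.37 ± 0.29 higher on the log2(FPKM + 1) scale (SE, n = 12 libraries per species; limma adjusted p = 2.07e-15). The other called recognition genes were PGRP-LD (1.58), PGRP-SC2 (1.54), which encodes an amidase that cleaves peptidoglycan, and GNBP2 (0.61). Thus 4 of the 8 tested genes of microbial recognition rose and 0 fell, with a list median of 0.60 (8 and 0 with FPKM as deposited; 3 and 3 with equal totals). Without the 4 libraries that stood apart 4 rose, with a median of 0.37, and without the 3 low in ple 6 rose, with a median of 1.02.

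Antimicrobial and immune-induced peptides, which kill or restrain microbes in the haemolymph, had the highest median of the lists examined. Of 19 tested genes, 15 were higher in D. sechellia and 2 were lower, with a median log2 difference of 3.63, against -0.01 for all tested genes (16 and 1 as deposited; 14 and 3 with equal totals). Def, which encodes the insect defensin, spanned 287, 991 and 1665 (lowest, median, highest) in D. sechellia larvae and 1.24, 1.90 and 7.57 in D. simulans larvae, a log2 difference of 7.92 ± 0.30 (adjusted p = 5.43e-14). CecA2, a cecropin, spanned 1194, 2064 and 3754 in D. sechellia and 4.05, 10.6 and 253 in D. simulans, a difference of 7.06 ± 0.51. Neither gene overlapped between the species. IM4, an immune-induced peptide released into the haemolymph, was among the most abundant transcripts, with 8442, 14878 and 22314 in D. sechellia against 111, 298 and 779 in D. simulans (5.73 ± 0.20). Drosocin (Dro, 5.35), IM33 (5.04, with D. simulans listed at 0 in 6 libraries and at 91.9 to 250 in the other 6), Diptericin B (DptB, 4.67), Metchnikowin (Mtk, 4.66) and Cecropin B (CecB, 4.47) rose as well. Drsl5, a gene related to the antifungal peptide drosomycin and picked out here for its high level, had a median of 19006 in D. sechellia and 2947 in D. simulans, with overlapping ranges (3.63 ± 0.76). The D. simulans values were 30.0 to 45.0 in the 3 libraries low in ple and 2252 to 11030 in the other 9, and without those 3 the difference was 2.02 (limma adjusted p = 0.000111).

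The exceptions went the other way within single families. Diptericin A (DptA), the neighbouring paralog of DptB, fell: its values were 3.69, 11 and 24.6 in D. sechellia and 611, 968 and 2291 in D. simulans (log2 difference -6.58 ± 0.21, adjusted p = 6.05e-15). A ratio taken within a library does not depend on scaling, and log2 of DptA over DptB lay between -8.30 and -3.90 in the 12 D. sechellia libraries and between 3.66 and 7.61 in the 12 D. simulans libraries. The 2 diptericin genes are neighbouring related copies, and whether reads of one were given to the other in either species was not tested. Drsl1 was the second peptide gene that fell (-2.44 ± 0.80, adjusted p = 0.0121; not called with FPKM as deposited or without the 4 libraries that stood apart). Drosomycin itself (Drs) had medians of 334 in D. sechellia and 300 in D. simulans and AttC, an attacin, 14.6 and 28.8, and neither was called (adjusted p = 0.593 and 0.901). AttD, another attacin, rose by 0.77, and its call was lost with equal totals.

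Transcripts of the signalling pathways upstream of these peptides had no direction that held under all scalings. Of 15 tested Toll and Imd pathway genes, 3 were higher in D. sechellia and 5 lower, with a median of -0.12 (9 and 1 as deposited; 0 and 13 with equal totals). Without the 4 libraries that stood apart the median was -0.19, with 3 higher and 7 lower. The adaptor imd rose by 0.91, and pirk, which restrains the Imd pathway, and the protease grass rose by 0.48 and 0.40. With equal totals grass was called lower (-0.37, limma adjusted p = 0.00174). The Toll ligand gene spz fell, with 2.60, 3.69 and 6.19 in D. sechellia against 8.72, 12.2 and 22 in D. simulans, ranges that did not overlap (-1.53 ± 0.12, adjusted p = 3.73e-09). The other genes that fell were the Toll transcription factor dl (-0.64), the protease modSP (-0.53), the receptor Tl (-0.43) and the kinase adaptor Tab2 (-0.31). Dif, another Toll transcription factor, was not tested, with 1.56 to 7.48 in D. sechellia and 0 in every D. simulans larval library. The pirk call was lost in 9 of 24 fits that each left out 1 library, and that of Tab2 without D. sechellia SO replicate 1 or D. simulans SO replicate 3. Among lectins, which bind sugars on cell surfaces, lectin-37Db was higher in D. sechellia by 5.65 ± 0.27 (38 to 259 against 0 to 3.09) and Lectin-galC1 was lower by a log2 difference of -4.20 ± 0.35 (0.625 to 3.14 against 14.1 to 178).

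**Figure D1:**
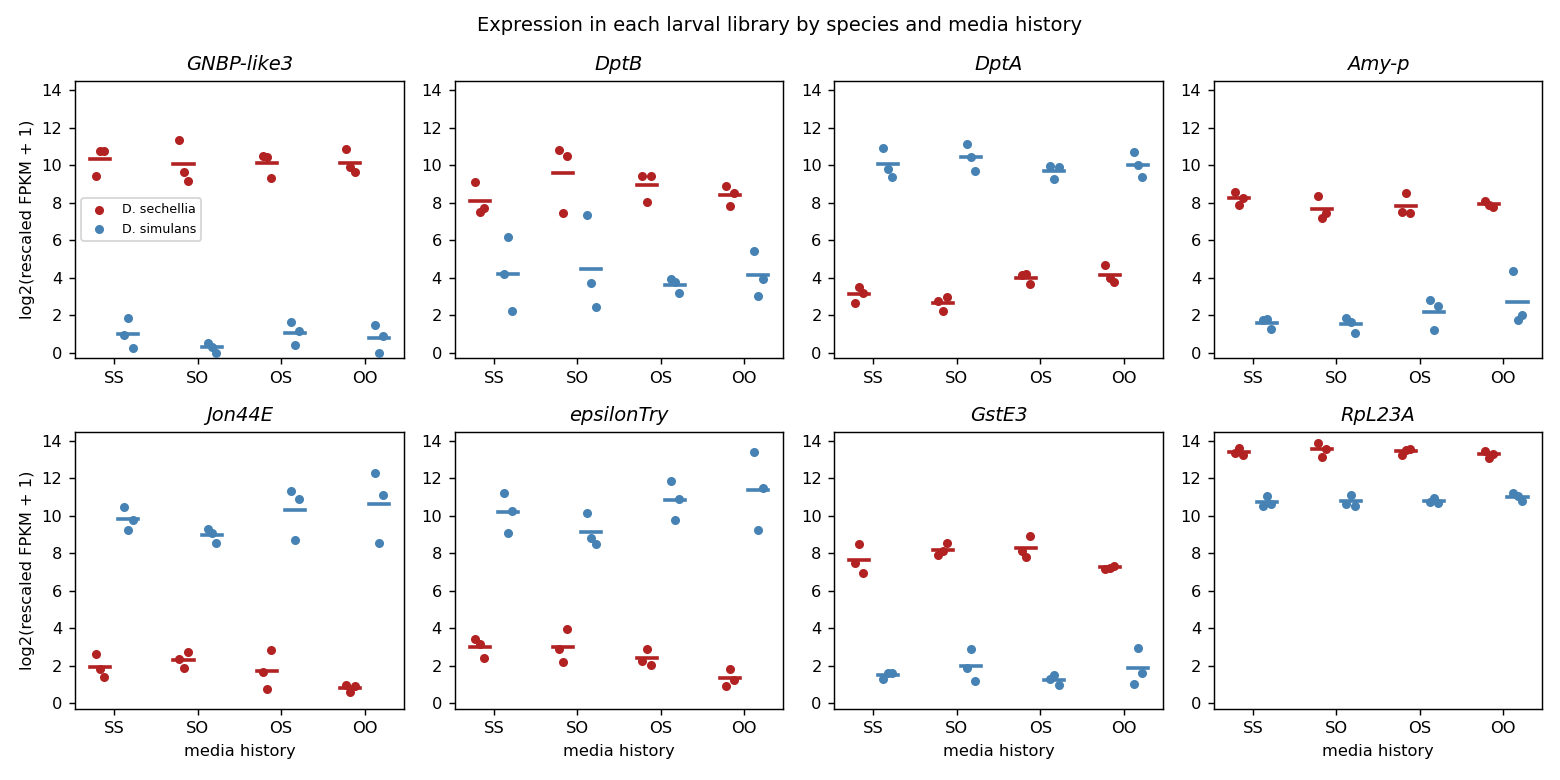
Level of 8 genes as log2(rescaled FPKM + 1) in every larval library, with D. sechellia (red) left of D. simulans (blue) at each media history and bars at group means of 3 libraries. The D. sechellia points lie above all D. simulans points for GNBP-like3, DptB, Amy-p, GstE3 and RpL23A and below them for DptA, Jon44E and epsilonTry in all 4 histories.

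Several digestive proteases were among the most strongly lower genes. Jonah genes encode serine proteases of the larval gut. Jon44E had 0.487, 2.37 and 6.04 rescaled FPKM in D. sechellia larvae, against 373, 764 and 4992 in D. simulans larvae (-8.25 ± 0.38, adjusted p = 1.19e-12). Jon65Aii fell by 6.81 and Jon99Cii fell by 6.22 on the log2 scale, again without overlap, so 3 of 4 tested Jonah genes were lower. The count was 3 under each scaling, while the direction of the fourth, Jon65Aiii, changed with scaling and without the 4 libraries that stood apart, and it was called higher (1.20, adjusted p = 0.0374) without the 3 libraries low in ple. Of 4 tested midgut markers, Amy-p rose and Jon99Cii and the lipase gene mag fell (2 and 2 as deposited; 1 and 2 with equal totals), and their summed level was 1166 to 5559 in D. sechellia and 586 to 9298 in D. simulans. The part of gut content in the protease values was not tested. Jon65Aiii was the most abundant Jonah gene in D. sechellia, with 847, 2041 and 5361 there and 385, 1668 and 7166 in D. simulans (adjusted p = 0.328).

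Trypsins, which cut proteins after basic residues, split by gene. epsilonTry had 0.875, 4.09 and 14.6 in D. sechellia against 358, 1178 and 10821 in D. simulans (-7.95 ± 0.40), and gammaTry had 0.780, 3.11 and 10.5 against 174, 1004 and 8046 (-7.86 ± 0.51). Both ranges were fully apart. zetaTry and lambdaTry were higher in D. sechellia by 3.06 and 2.98 with overlapping ranges, lambdaTry with D. simulans listed at 0 in 8 of 12 libraries. etaTry (-0.18) and iotaTry (-0.86) were not called. In total 2 of 6 tested trypsins rose and 2 fell (3 and 2 as deposited, and 2 and 4 with equal totals). Over all tested genes the shares were 32.7% higher and 32.9% lower. Trypsin genes of this cluster are closely related copies, and counts for gammaTry in particular may include reads of its neighbours.

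Amylase transcripts were higher in D. sechellia. Amylase, the enzyme that splits starch, is encoded by Amy-p and its copy Amy-d, and Amy-p spanned 143, 234 and 386 rescaled FPKM in D. sechellia larvae and 1.04, 2.40 and 19.6 in D. simulans larvae (5.93 ± 0.27, adjusted p = 1.05e-12). Amy-d was 5.40 ± 0.27 higher, with 102 to 269 in D. sechellia. In all 12 D. simulans libraries the 2 amylase genes held the same value, whereas they differed in all 12 D. sechellia libraries, so values of the separate copies in D. simulans are uncertain. The sugar transporters Tret1-1 (-1.52) and sut1 (-0.92) and the trehalose-splitting enzyme Treh (-0.60) fell, the last not called without the 3 libraries low in ple. In total 2 of 12 genes of sugar digestion and transport rose and 3 fell (4 and 1 as deposited; 2 and 8 with equal totals).

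Other gut products varied gene by gene. Peritrophin-15a, a chitin-binding protein of the membrane that lines the gut, rose to 3525, 8638 and 16133 in D. sechellia, against 556, 802 and 2697 in D. simulans (3.19 ± 0.25), while Muc11A, a mucin, fell to 0.712, 3.52 and 13.0 against 16.6, 58.2 and 132 (-3.59 ± 0.40). These were the 2 called genes among 5 tested genes for lysozymes and the peritrophic matrix under the main scaling (2 and 1 as deposited; 1 and 1 with equal totals). Of 10 tested lipase genes, 5 rose (CG6271, CG8093, CG6283, Lip2 and CG31871, by 4.64, 2.63, 2.04, 1.02 and 0.82) and 2 fell, mag (-4.49) and CG6296 (-1.66), with 6 and 1 as deposited and 4 and 5 with equal totals. CG6271 was listed at 0 in 7 D. simulans libraries and held 6.19 to 68.2 in the other 5. The CG6296 call was lost in 14 of 24 fits that each left out 1 library. The chitinase-family gene Cht4 (-4.02 ± 0.26) and the secreted protein gene Ag5r2 (-4.55 ± 0.54) were also lower without overlap.

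Detoxification genes had no common direction. Of 39 tested cytochrome P450 genes, 14 rose and 13 fell, with a median of -0.08 (19 and 7 as deposited, and 11 and 22 with equal totals). The counts were close to the shares over all tested genes, 32.7% higher and 32.9% lower. Without the 3 libraries low in ple the P450 median was 0.16. Cyp4d20 had 13.5, 20.0 and 29.7 rescaled FPKM in D. sechellia against 0.497, 1.38 and 2.87 in D. simulans (3.03 ± 0.13), and Cyp4ae1 rose by 1.5. Cyp9b1 had the largest rise, 3.26, and is named for that. Cyp6a9, of a subfamily linked to insecticide resistance in flies, was at most 0.321 in D. sechellia and at least 4.84 in D. simulans (-3.73 ± 0.28). It passed the filter only through D. simulans, so its direction was favoured in advance. Cyp4ac1 fell by 3.04. Another 7 P450 genes were set apart because one species was at 0 throughout. Those with a Cyp name were all at 0 in D. simulans, among them Cyp28a5 with 0.888 to 60.5 in D. sechellia.

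Among glutathione transferases, which attach glutathione to toxic compounds, 5 of 13 tested genes rose and 3 fell, with a median of 0.08 (8 and 2 as deposited; 2 and 7 with equal totals), which was 0.38 without the 4 libraries that stood apart. GstE3 stood out, with 125, 232 and 495 in D. sechellia against 0.964, 1.93 and 6.61 in D. simulans (6.20 ± 0.23, adjusted p = 5.24e-14). The other rises were GstE11 (1.24), GstE13 (0.71), GstT1 (0.62) and GstE9 (0.60), and the genes that fell were GstE10 (-1.76), GstE1 (-1.70) and GstE14 (-0.62, not called without those 4). Under equal totals GstE13, GstT1 and GstE9 changed sign. Of 4 tested UDP-glycosyltransferases, which add sugars to foreign compounds, Ugt58Fa rose (1.30 ± 0.14) and Ugt37b1 fell (-2.93 ± 0.19), both without overlap (2 and 1 as deposited; 1 and 2 with equal totals).

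Of 11 tested oxidative stress genes, 6 rose and 2 fell, with a median of 0.72 (10 and 1 as deposited; 2 and 5 with equal totals). Gclc, the catalytic subunit of the enzyme that starts glutathione synthesis, had 47.8, 86.0 and 99.5 in D. sechellia against 13.1, 18.4 and 26.2 in D. simulans (2.08 ± 0.12). The peroxiredoxins Jafrac2 and Prx5 were 1.03 and 0.89 higher without overlap between the species. The glutathione peroxidase PHGPx was lower, with 203 to 359 against 494 to 777 (-1.23 ± 0.11). Prx3 fell by 0.26, a call that was lost in 10 of 24 fits that each left out 1 library. With FPKM as deposited Prx3 was called higher (0.39, limma adjusted p = 0.00234).

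The protein-making and respiratory machinery was mostly higher in D. sechellia on the main scale, and its calls went both ways under equal totals. Equal totals lowered the median of all tested genes to -0.69. Relative to that median, cytosolic and mitochondrial ribosomal proteins lay 0.68 and 0.73 higher, complex I 0.43 and the other respiratory genes 0.39. On the main scale the same 4 values were 0.78, 0.81, 0.51 and 0.48. Of 52 tested cytosolic ribosomal protein genes, 45 rose and 2 fell, for a median of 0.77 (49 and 2 as deposited; 19 and 18 with equal totals, median -0.01). RpL39 (2.61), RpL23A (2.60), RpS27 (2.37) and RpS24 (1.66) led the rises, and RpL23A ran at 8644, 10844 and 15290 in D. sechellia against 1454, 1737 and 2374 in D. simulans. The 2 that fell were RpL4, with 742 to 1106 against 1401 to 2600 (-0.95 ± 0.10), and RpS28a, with 0.585, 1.61 and 3.47 against 2524, 4693 and 10419 (-10.74 ± 0.21, adjusted p = 1.95e-18), the most negative value among genes with a name. RpS28a is one of several near-identical RpS28 copies, so its value is uncertain where reads were split between copies.

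Mitochondrial ribosomal proteins followed: 29 of 40 tested genes rose and 1 fell, with a median of 0.80 (39 and 1 as deposited; 13 and 13 with equal totals). mRpS33 rose by 1.94 and mRpL32 by 1.62, both without overlap, and mRpL43 was the gene that fell (-1.01 ± 0.11). mRpS16 had the largest value, 5.53, but D. simulans was listed at 0 in 10 libraries and held 85.8 in SO replicate 2 and 77.4 in OO replicate 2, inside the D. sechellia range of 54.9 to 156. In respiratory complex I, which passes electrons from NADH into the chain, 14 of 23 genes rose and 1 fell, with a median of 0.50 (21 and 0 as deposited; 6 and 11 with equal totals). ND-13A (1.39) and ND-B17.2 (1.11) rose. The gene that fell was ND-49L (-0.46), whose call was lost without D. sechellia SO replicate 2 or OO replicate 1, or without D. simulans OS replicate 2 or OO replicate 2. Without the 4 libraries that stood apart 18 complex I genes rose and 0 fell.

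Of 26 tested genes for the remaining respiratory chain and ATP synthase, 13 rose and 1 fell (23 and 0 as deposited; 8 and 10 with equal totals). The small subunits of complex III gave the largest values: UQCR-14 had 325, 471 and 813 in D. sechellia against 7.97, 12.8 and 54.5 in D. simulans (4.79 ± 0.31), UQCR-11L was 3.69 higher and UQCR-6.4 2.71 higher. COX8, a small subunit of complex IV, rose by 1.63. SdhA, the flavoprotein of complex II, fell (-0.54 ± 0.12). FPKM divides by transcript length, and gene lengths were not used here, so whether the differences go with length was not tested.

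**Figure D2:**
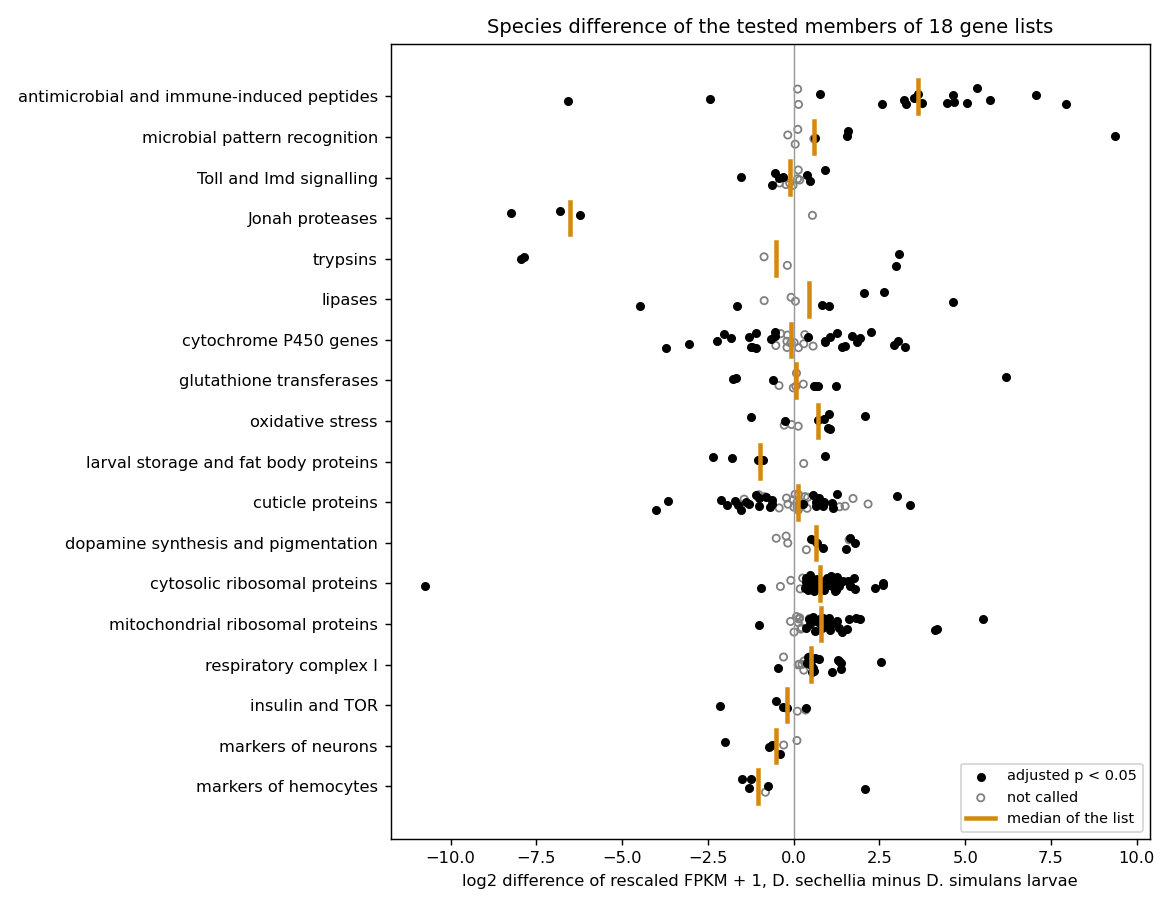
Log2 species difference (D. sechellia minus D. simulans larvae, x axis) of every tested member of 18 gene lists, with filled points for genes called at an adjusted p under 0.05, open points for genes not called, and an orange bar at the list median. The antimicrobial peptides have a median of 3.63 with DptA at -6.58, the Jonah proteases lie below -6 apart from Jon65Aiii, and the ribosomal protein lists sit mostly right of 0 with RpS28a at -10.74.

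Genes of late larval growth and moulting were mostly lower or mixed. Larval serum proteins are made in the fat body and stored for metamorphosis. Lsp1beta had 804, 1751 and 3549 in D. sechellia against 3345, 5261 and 11710 in D. simulans (-1.78 ± 0.27, adjusted p = 1.36e-05), and the lipid carrier apolpp had 31.6, 62.3 and 134 against 148, 385 and 590 (-2.36 ± 0.27). Fbp2 (-1.04) and Lsp1gamma (-0.91, not called without the 3 libraries low in ple) also fell, so that 4 of 6 storage and fat body genes fell and 1, Hex-C (0.92), rose (2 higher and 3 lower as deposited; 0 and 4 with equal totals). Hex-C was scarce, at a median of 0.750 in D. sechellia, and was above 0 in 1 of 12 D. simulans libraries (OO replicate 2, 8.80), without which it could not be tested. Its call was lost in 19 of the 23 fits that left out another single library. Lsp1beta and Fbp2 were also the 2 fat body markers tested, and both were lower.

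Cuticle proteins build the larval skin, and their counts in the 2 directions depended on the libraries used. Of 55 tested genes, 15 rose and 16 fell, with a median of 0.13 (22 and 7 as deposited; 7 and 23 with equal totals). Without the 4 libraries that stood apart 10 rose and 16 fell, with a median of -0.15, and without the 3 low in ple 15 rose and 11 fell, with a median of 0.28. Pcp, a pupal cuticle protein, had 392, 1296 and 3634 in D. sechellia against 38, 117 and 244 in D. simulans (3.39 ± 0.36), and Edg78E, an ecdysone-dependent cuticle gene, rose by 3.03, both without overlap. Lcp65Ad fell by 3.66 without overlap, and Cpr65Aw fell by 4.01 with overlapping ranges of 0.909 to 102 in D. sechellia and 14.1 to 3396 in D. simulans.

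Ecdysone is the moulting hormone, and its response genes are a clock of the last larval stage. Of 12 tested, 3 rose and 5 fell (7 and 0 as deposited; 1 and 7 with equal totals). The cell death gene rpr rose to 89.6, 348 and 764 in D. sechellia, against 9.05, 37.8 and 132 in D. simulans (2.90 ± 0.38), with ImpE3 at 1.30 and Eip63F-1 at 0.79. Hr3 (-1.26), ImpL2 (-0.56), ftz-f1 (-0.53), Eip55E (-0.42, not called without the 4 libraries that stood apart) and usp (-0.18) fell, and the usp call was lost in 15 of 24 fits that each left out 1 library. Within D. simulans the 3 libraries low in ple were also low for 3 of these genes: rpr held 9.05 to 15.3 there and 24.5 to 132 in the other 9, ImpE3 5.09 to 10.8 and 16.8 to 76.7, and Hr3 0.438 to 1.65 and 7.84 to 37.2. Without those 3 the differences were 2.45 for rpr, 0.92 for ImpE3 and -1.89 for Hr3, and all 3 stayed called.

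Dopamine feeds cuticle tanning as well as nerve signalling, and dopamine is also tied to noni adaptation, since D. sechellia carries a mutation in Catsup, a regulator of tyrosine hydroxylase. Of 12 tested genes for dopamine synthesis and pigmentation 6 rose and 0 fell (9 and 0 as deposited; 1 and 4 with equal totals). The hydroxylase gene ple had a median of 957 in D. sechellia and 517 in D. simulans, with ranges of 248 to 2073 and 9.13 to 2385, a difference of 1.78 ± 0.64 (adjusted p = 0.0205). Its lowest values were the 9.13 and 12.8 of 2 D. simulans OS libraries and the 10.5 of D. simulans OO replicate 1. Catsup rose by 0.51 ± 0.11, but with equal totals it was called lower (-0.26, limma adjusted p = 0.00525). yellow-c (1.51), yellow-b (0.85), yellow-d (0.68) and b (1.64), which makes the tanning precursor beta-alanine, completed the group, and yellow-d changed sign with equal totals (-0.063). Without the 3 libraries low in ple, ple was not called (0.48, adjusted p = 0.186), b and yellow-c were 1.02 and 1.20 higher, and 5 of 12 genes rose. In those 3 libraries b held 16.6 to 24.9, against 95.4 to 574 in the other 9 D. simulans libraries.

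The wider set of genes named in work on noni resistance, 5 of 7 tested, held 3 that rose (Cyp4d8 by 1.07, ple and Catsup; 2 without the 3 libraries low in ple) and 1 that fell, Osi6 (-0.42), with 3 and 0 as deposited and 0 and 3 with equal totals. Osi6 was scarce, at 0 to 0.894 in D. sechellia against 0.339 to 1.87 in D. simulans. It passed the filter only through D. simulans, so its fall was favoured in advance. The odorant receptor Or22a and Osi8 did not pass the filter. Esterase 6 (Est-6) missed the threshold (-1.03 ± 0.47, adjusted p = 0.0614), passed it with equal totals or a pseudocount of 0.1, and passed it without D. sechellia SS replicate 1, SO replicate 2 or SO replicate 3 (limma adjusted p = 0.00634, 0.0417 and 0.0278) and without D. simulans OO replicate 2 (0.0443). Among 102 listed chemoreceptor genes, 7 were tested and 28 were set apart because one species was at 0 throughout. The odorant receptor gene Or43b was set apart, with 5.46 to 12.1 in D. sechellia and 0 in every D. simulans larval library. The ionotropic receptors Ir31a (1.96), Ir7g (1.67) and Ir60b (1.64) and the gustatory receptors Gr5a (1.20) and Gr98b (0.95) rose and Ir76a fell (-0.52), with 5 and 1 as deposited and 4 and 4 with equal totals. Their levels were low: Ir7g spanned 1.38 to 3.75 in D. sechellia and 0 to 0.106 in D. simulans. Gr5a was listed at 0 in 6 D. simulans libraries and held 2.58 to 10.2 in the other 6, inside its D. sechellia range of 0.781 to 13.4. A gene that passed the filter only through the species where it was high had to differ, so these counts say nothing of the untested receptors.

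Genes for lipid synthesis and insulin signalling, which bear on growth, had no direction that held under all scalings. Of 8 tested fatty acid synthesis genes 0 rose and 3 fell, the synthase FASN1 (-1.21), the acyl-CoA synthetase Acsl (-0.92, 14.9 to 35.9 against 36.6 to 72.9) and the phosphatidate phosphatase Lpin (-0.72), with 2 and 0 as deposited and 0 and 6 with equal totals. Of 7 insulin and TOR genes 1 rose, Ilp7 (0.36), and 4 fell (4 and 1 as deposited; 0 and 6 with equal totals). Pi3K21B, the adaptor of the insulin-activated lipid kinase, had 1.88, 6.19 and 7.89 in D. sechellia against 22.2, 28.6 and 37.2 in D. simulans (-2.13 ± 0.13, adjusted p = 9.78e-11). InR (-0.52), S6k (-0.32) and Lnk (-0.19) were the smaller falls, and the Lnk call was lost in 14 of 24 fits that each left out 1 library.

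Markers of single tissues were called about as often as other genes, 21 of 33 tested (63.6%, midgut and fat body included) against 65.5% of all tested genes. Of 6 neuronal markers 4 fell and 0 rose: Syt1, the synaptic vesicle calcium sensor, had 45.3, 59.1 and 104 in D. sechellia against 176, 258 and 334 in D. simulans (-2.0 ± 0.14), with elav at -0.73, VGlut at -0.64 and nSyb at -0.40 (1 and 1 as deposited; 0 and 5 with equal totals). Their summed level was 60.8 to 115 in D. sechellia libraries and 203 to 349 in D. simulans libraries, most of it Syt1. Of 6 blood cell (hemocyte) markers 4 fell, eater (-1.51), Pxn (-1.31), NimC1 (-1.25) and crq (-0.76), and 1 rose, the crystal cell prophenoloxidase PPO2 (2.08 ± 0.29), with 1 and 3 as deposited and 1 and 5 with equal totals; the summed level was 129 to 213 against 155 to 385. Of 6 tracheal and Malpighian tubule markers, Uro (2.58) and Drip (0.83) rose and uif (-1.76) and Best2 (-0.72) fell (2 and 1 as deposited; 1 and 4 with equal totals). In 5 muscle markers Mlc2 rose (1.02) and Mhc fell (-1.51), calls lost in 15 and 11 of 24 fits that each left out 1 library (1 and 0 as deposited; 0 and 2 with equal totals). Mhc was not called without the 4 libraries that stood apart or without the 3 low in ple. Pcp was the one epidermal marker of 4 that was called (2 and 0 as deposited; 1 and 0 with equal totals). The part of tissue make-up in the gene group results was not tested.

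Testis markers bear on the labelled sex. Of 11 tested, twe rose (2.11) and 5 fell, Prosalpha6T (-0.94, not called without the 4 libraries that stood apart), Mst98Cb (-0.88), Prosbeta2R1 (-0.72), sa (-0.65) and comr (-0.31), with 2 and 0 as deposited and 1 and 10 with equal totals. For twe, D. simulans was listed at 0 in 7 libraries and held 8.34 to 22.0 in the other 5, against 7.83 to 16.2 in D. sechellia, and its call was lost without the 3 libraries low in ple (adjusted p = 0.107). Without the 4 libraries that stood apart 3 fell and 1 rose, and without the 3 low in ple 7 fell and 0 rose. The comr call was lost in 14 of 24 fits that each left out 1 library.

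Several of the largest differences lay outside these groups. OSCP1, named for an organic solute carrier partner, was at 0 to 0.760 in D. sechellia and at 1045, 1545 and 3061 in D. simulans (-10.15 ± 0.12). Cap-D3, a condensin II subunit, fell by 7.51 and Cnx99A, a chaperone of the endoplasmic reticulum, by 4.13. On the higher side stood Cdlc2, a dynein light chain, with 368, 461 and 534 in D. sechellia against 3.09, 13.6 and 32.0 in D. simulans (4.96 ± 0.26), and the mechanosensory channel gene nompC, with 21.7 to 44.6 against 0.182 to 0.755 (4.61 ± 0.10). None of these 5 genes overlapped between the species. Cdlc2 has a close paralog, and the part of that copy in the value was not tested.

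The species difference was then taken within each media history, where 3 D. sechellia libraries met 3 D. simulans libraries. In the shared fit 2537 of 6814 genes were called in SS larvae (37.2%), 3005 in SO larvae (44.1%), 2239 in OS larvae (32.9%) and 1812 in OO larvae (26.6%). The order of these counts was not stable: without 1 library they reached 1583 in SS (D. sechellia SS replicate 2), 1464 in OS (D. sechellia OS replicate 2) and 1188 in OO (D. sechellia OO replicate 1), without the 3 libraries low in ple 1308 in OS, and with FPKM as deposited OO had the most, 3993. Of the 4464 genes called over all histories, 3924 had the same sign in all 4, and 548 higher and 450 lower genes were called in each of the 4. The 4464 were called on the mean of these same 4 differences. Agreement between histories was thus favoured in advance, also for the genes named next. GNBP-like3 was 9.32, 9.78, 9.04 and 9.35 higher in SS, SO, OS and OO, and Amy-p, GstE3, Def, IM4, Jon44E, epsilonTry and DptA were called in each history as well.

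For other genes the estimates varied by history, and none of the 4 given here passed a test of species by medium (limma adjusted p = 0.202 for IM33 and ple, 0.210 for Drsl5 and 0.319 for zetaTry by previous medium, and 1.00 for each by current medium). Drsl5 was called in OS (6.03) and OO (5.25) and not in SS (2.84) or SO (0.39), IM33 had 9.60 in SO, where D. simulans was listed at 0 in all 3 libraries, and 0.06 in OO, and zetaTry 4.86 in SO and 0.53 in OO. ple had differences of 4.40 in OS and -1.38 in SO, of which only the first was called. The OS and OO values of Drsl5 and ple rest on the D. simulans libraries low in ple, 2 of 3 in OS and 1 of 3 in OO. Medians of the protein-making and complex I lists were lowest in OO: cytosolic ribosomal proteins had 0.99, 1.13, 0.77 and 0.28 in SS, SO, OS and OO, and complex I had 0.78, 1.05, 0.37 and -0.23. Without D. simulans OO replicate 1, the library with Yp1, the OO medians were 0.55 and 0.05. Cuticle proteins had a median of -1.13 in OO, and -1.33 without that library. Whether these medians differ between histories was not tested.

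**Figure D3:**
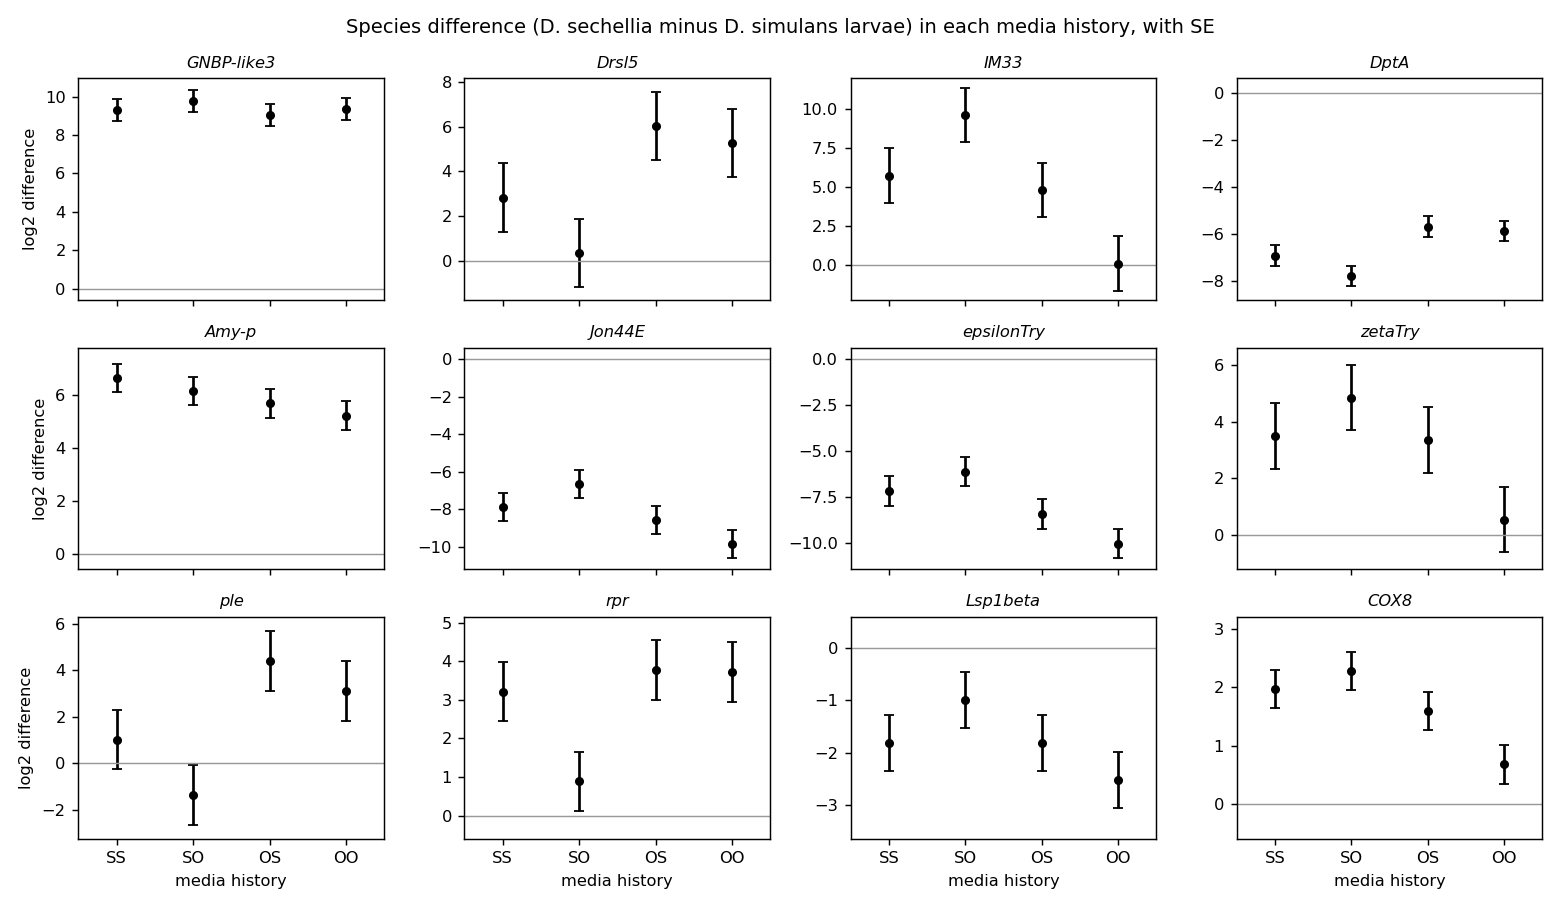
Log2 species difference (D. sechellia minus D. simulans larvae) of 12 genes in each media history, from the shared fit of 24 libraries with bars of 1 SE. GNBP-like3 stays near 9 in every history, while the estimates of Drsl5, IM33, zetaTry and ple vary with wide errors, and none of these 4 was called in a test of species by medium.

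The direct test of whether the species difference depends on the medium called almost no gene with all 24 libraries. That does not show that the difference is the same on each medium. For the current medium 1 of 6814 genes was called (0.0147%), with 127 (1.86%) at an unadjusted p under 0.05. For the previous medium 1 was called (0.0147%), with 1196 (17.6%) at an unadjusted p under 0.05. Both calls were Wdr24, a subunit of the GATOR2 complex that senses amino acids upstream of TOR. Its level in D. simulans was 4.82, 6.13 and 6.65 in SS, 5.62, 5.81 and 6.6 in SO, listed at 0 in all 3 OS libraries, and 7.25, 7.91 and 10.2 in OO, while in D. sechellia the 12 values lay between 2.93 and 4.85. The species difference was 2.24 in OS, with the 3 zeros of D. simulans, and -0.59, -0.37 and -1.13 in SS, SO and OO. An exact 0 in a table of this kind can be a failed estimate. The interaction was -1.58 ± 0.15 by current medium (adjusted p = 1.31e-05) and 1.04 ± 0.15 by previous medium (adjusted p = 0.00707). Without D. simulans OO replicate 2 the count by previous medium was 183, and without the 4 libraries that stood apart it was 170, so that count turned on 1 library.

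Genes listed at 0 throughout one species were set apart from the tests. D. simulans had 278 such genes, of which 166 reached 1 rescaled FPKM in at least 3 D. sechellia libraries and 13 averaged at least 100 there. D. sechellia had 86, of which 4 reached that level in D. simulans, and 45 genes were at 0 in all 24 libraries. The group was thus lopsided by 166 to 4. The named gene with the highest mean was ox, a subunit of complex III, with 855, 1168 and 1437 in D. sechellia against 0 in every D. simulans larval library. Ip259 followed with 232 to 488, then Rpb11, an RNA polymerase II subunit, with 81.9 to 117, Dgkepsilon with 40.1 to 60.9, and cyp33 with 33.4 to 69.2. Snapin, sni, Tsp42Ej, Rrp40 and mRpL16 had medians of 42.8, 37.7, 29.4, 31.4 and 29.9.

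Some of these zeros were not found in hybrids or adults, and others were. In the hybrid larvae, whose reads the authors assigned to the D. sechellia or the D. simulans allele, the D. simulans allele of ox was above 0 in 11 of 12 libraries (median 241), and those of Ip259, Rpb11, Dgkepsilon and cyp33 in 12 of 12 (55.1, 91.3, 23.5 and 6.92). Of the other named genes, that allele was above 0 in 7 libraries for Rrp40, in 1 each for sni and Tsp42Ej, and in 0 for Snapin and mRpL16. D. simulans adults averaged 1697 for ox and 62.7 for Rpb11, the latter above 0 in 6 of 12 libraries. Tsp42Ej was above 0 in 12 D. simulans adult libraries and mRpL16 in 10. Ip259, Dgkepsilon, cyp33, Snapin, sni and Rrp40 were at 0 in all 12. Of the 166 genes, 55 were also at 0 for the D. simulans allele in all 12 hybrid larvae, 109 were at 0 in all 12 D. simulans adult libraries, and 39 were at 0 in both. In the other direction, the members at 0 in D. sechellia were scarce in D. simulans too: the cuticle gene Cpr65Ax2 reached 17 in 1 library with a median of 0.937, and sala spanned 0.418 to 2.51.

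The hybrid alleles gave a ratio for each gene in libraries that the comparison of the parents did not use. The 2 alleles of a gene share each hybrid library with its tissues and stage. What acts on both alleles alike does not enter their ratio, so the ratio need not match the difference between the parents. The part of read assignment in the ratio was not tested. Of 1627 genes called higher in D. sechellia with both alleles above 0 in at least 6 of 12 hybrid libraries, 63.0% had the higher D. sechellia allele, and of 1625 called lower 29.9% did, against 46.7% of all 4837 tested genes with both alleles. Among genes beyond 4-fold the shares were 74.1% of 158 and 6.78% of 59. GstE3 (D. sechellia allele median 147, D. simulans allele 25.7), Amy-p (30.2 and 3.30), Pcp (1738 and 185) and Peritrophin-15a (7264 and 1779) kept the parental direction. On the lower side epsilonTry (4.13 and 1504), Cap-D3 (2.84 and 1122) and Ugt37b1 (14.0 and 88.6) did so too. For GNBP-like3 (3739 and 0), Edg78E (21.6 and 0), Jon44E (0 and 425) and OSCP1 (0 and 1201) one allele had a median of 0, and these values are given without reading a direction from them. Whether a gene name stands for the same gene model in the parental and the hybrid columns is not given in the sources used here, so an allele listed at 0 does not show that the allele was silent.

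Other genes that were higher in D. sechellia larvae had a D. sechellia allele listed at 0 in hybrids. The D. sechellia allele of IM4 was at 0 in all 12 hybrid libraries while the D. simulans allele had a median of 330, and the same held for RpL23A (0 and 5346), COX8 (0 and 124) and Cdlc2 (0 and 9.83), and no direction is read from these zeros either. DptB, with both alleles detected, ran against the parents, with 21 for the D. sechellia allele and 70.2 for the D. simulans allele. Among genes over 4-fold higher in D. sechellia, 21 had a D. sechellia allele at 0 in all 12 hybrid libraries with a D. simulans allele above 0 in at least 6, and 11 had the reverse, while among genes over 4-fold lower the counts were 28 and 0. Def, RpL39 and Lcp65Ad had medians of 0 for both alleles and give no comparison. Over all tested genes a D. sechellia allele at 0 beside a detected D. simulans allele occurred 308 times and the reverse 30 times, an imbalance opposite to that of the parental zeros.

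**Figure D4:**
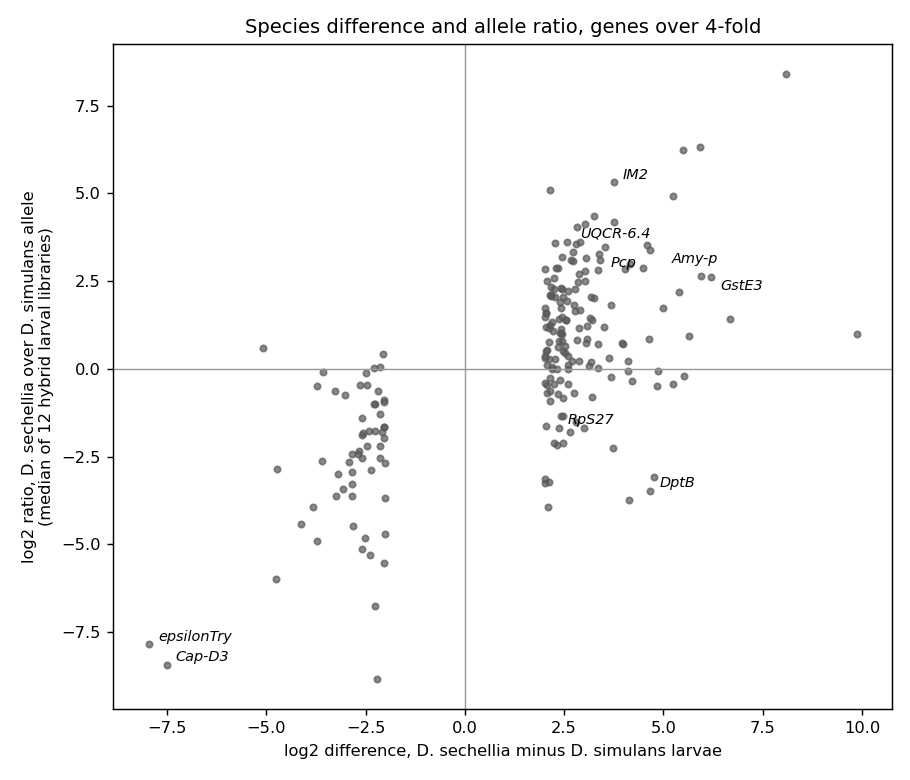
Log2 species difference in larvae (x axis, D. sechellia minus D. simulans) against the log2 ratio of the D. sechellia over the D. simulans allele in hybrid larvae (y axis, median of 12 libraries) for the 158 higher and 59 lower genes beyond 4-fold with both alleles detected. Most points on the left lie below 0 and 74.1% of those on the right lie above 0, with RpS27 and DptB among the exceptions.

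Adults of the same species and histories, 12 D. sechellia and 12 D. simulans libraries of 10 whole adult females, gave the same comparison at another stage. In a joint fit of 48 libraries, the species difference in larvae departed from that in adults for 3676 of 6401 genes (57.4%), 1696 upward and 1980 downward. Most genes named below were chosen for their larval difference, which favours a larger difference in larvae than in adults. Def was 7.69 ± 0.37 further apart in larvae than in adults, where it averaged 735 ± 297 in D. sechellia and 597 ± 150 in D. simulans (SD, n = 12 each; limma adjusted p = 1.20e-18). GNBP-like3 (6.48), Amy-p (6.48), Amy-d (6.47) and lectin-37Db (5.23) also had the larger excess in larvae, and adult Amy-p averaged 73.3 ± 29.9 in D. sechellia and 100.2 ± 26 in D. simulans.

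Among lower genes gammaTry departed most: adults averaged 292 ± 145 in D. sechellia and 203 ± 23 in D. simulans, and the larval difference was -8.26 ± 0.57 relative to the adult one (adjusted p = 4.71e-14). DptA (-4.74), Cap-D3 (-4.54) and Cht4 (-3.80) were further down in larvae as well, and Cdlc2 (-4.67) was less raised in larvae than in adults, where D. simulans averaged 0.00985. RpS28a had a difference of -10.92 in adults, with a stage difference of 0.11 ± 0.24 (adjusted p = 0.706), and epsilonTry had a stage difference of -0.45 ± 0.44 (adjusted p = 0.383). The following 3 genes, picked out after their values were seen, changed sides between stages: Lsp1beta, Cyp4ac1 and Ugt37b1 were lower in D. sechellia larvae and higher in D. sechellia adults, by 4.38, 1.28 and 1.05, and their stage differences were -6.17, -4.39 and -4.00.

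**Figure D5:**
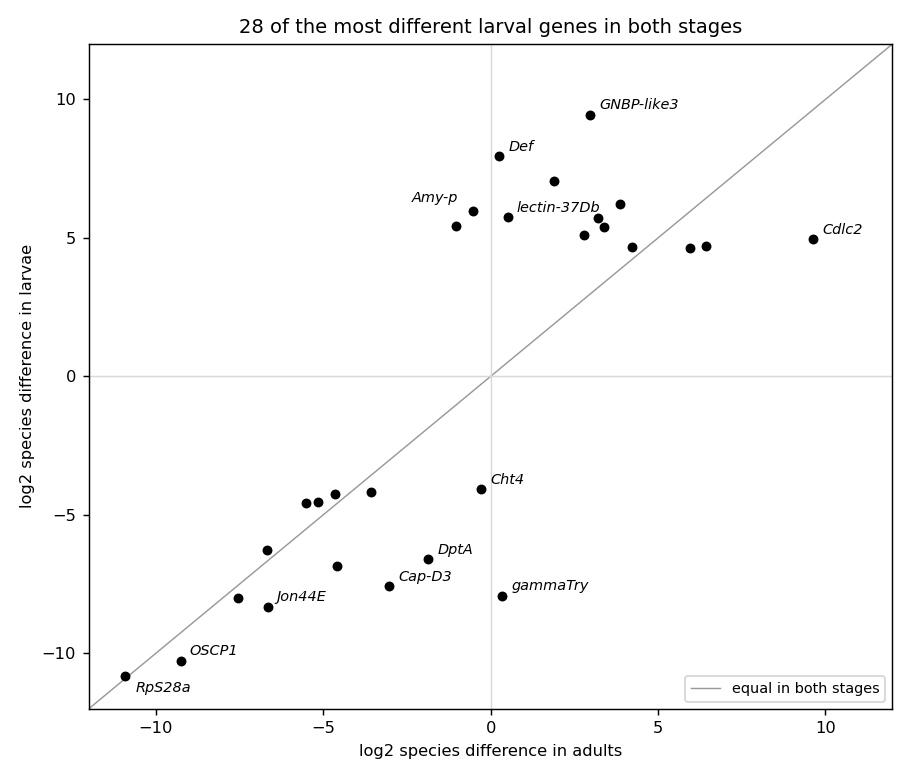
Log2 species difference (D. sechellia minus D. simulans) in larvae (y axis) against that in adults (x axis) for the 28 most different named larval genes that could be tested in both stages, from the joint fit of 48 libraries. Def, Amy-p and gammaTry lie near 0 in adults and far from 0 in larvae, while RpS28a and OSCP1 lie on the line of equal difference or close to it.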

How the data were processed

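The authors deposited 1 merged table of FPKM per gene, with 1 column per parental library and 2 allele columns per hybrid library. The submitters' processing notes name FastQC, Bowtie2 and Cufflinks; versions, genome builds and read totals are not in the labels, so depth is unknown and no counting interval is given. Here FPKM were rescaled by median-ratio factors over the 6369 genes above 0 in all 24 larval libraries. Genes were kept with at least 1 rescaled FPKM in at least 3 libraries and a value above 0 in each species. Some, such as Osi6, Cyp6a9, Edg78E, nompC and OSCP1, passed only through the species where they were high, which favours a call. limma 3.58.1 (R 4.3.3) was fitted to log2(FPKM + 1), which understates fold changes of low genes. The fit had 8 group means, a mean-variance trend and Benjamini-Hochberg adjustment over all tested genes. For adults it had 16 group means over 48 libraries, rescaled over 5190 genes. The fit was first run on simulated data with few changed genes, balanced in direction, which did not test the choice of scaling. Allele columns, rescaled over 2423 genes, were only described. The text names the 15 largest called differences per direction, genes of smallest p in each list, noni candidates, amylases, genes at 0 in one species, interactions and members of counts of 5 or fewer. Genes and lists were chosen with earlier results of these data known. Same-numbered libraries were checked for pairing, and 4 of 12 pairs correlated over 0.1, so the main fit has no block. Alternatives were other scalings, a pseudocount of 0.1, no filter, no trend, species weights, no media history, hybrids in the fit, genes set apart included, a replicate block, each library left out and, added after seeing the data, 2 sets of D. simulans libraries left out.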

Additional observations from a re-analysis of the deposited data

Results flagged for a closer look

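For 13 named genes the species difference (D. sechellia minus D. simulans) in larvae departed from that in adults by the test of the difference itself (limma on 48 libraries, adjusted p under 0.05). On the log2 scale the larval difference exceeded the adult one by 7.69 for Def, 6.48 for GNBP-like3, 6.48 for Amy-p, 6.47 for Amy-d and 5.23 for lectin-37Db. It lay below the adult one by a difference of -8.26 for gammaTry, -6.17 for Lsp1beta, -4.74 for DptA, -4.67 for Cdlc2, -4.54 for Cap-D3, -4.39 for Cyp4ac1, -4.00 for Ugt37b1 and -3.80 for Cht4. Each kept its direction and its call under every alternative that gave a value. The background is wide, since 57.4% of the tested genes were called in this comparison. Most of these genes were named for their larval difference, and Lsp1beta, Cyp4ac1 and Ugt37b1 were picked after their values were seen. Such a choice favours a larger difference in larvae than in adults.

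Wdr24 was the one gene called in the tests of species by medium, with an interaction of -1.58 for the current medium and 1.04 for the previous medium, with D. simulans listed at 0 in all 3 OS libraries.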

How the results depend on the processing

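The count of 4464 genes that differed between D. sechellia and D. simulans larvae stayed within 1.5 times under every alternative run (3518 with hybrid libraries in the fit to 5452 with equal totals). It was 4279 to 4641 when single libraries were left out. This count ignores direction: of 6795 genes tested under all 3 scalings, 1829 were called higher under 1 scaling and lower under another. The ranges when leaving out 1 library were 1583 to 2875 in SS (lowest without D. sechellia SS replicate 2), 2097 to 3252 in SO, 1464 to 2588 in OS (lowest without D. sechellia OS replicate 2), 1188 to 2027 in OO (lowest without D. sechellia OO replicate 1) and 3539 to 3929 for larvae against adults. By current medium the count was 1 to 3 (2 without D. simulans SS replicate 3 or OO replicate 2, 3 without SO replicate 2), and by previous medium 1 to 183 (2 without D. simulans SS replicate 2 or SS replicate 3, 3 without SO replicate 2, 183 without OO replicate 2). With hybrid libraries in the fit, the counts were 1378 in SS, 1775 in SO, 1200 in OS, 1019 in OO and 0 by previous medium. Equal totals gave 4161 in SS, FPKM as deposited gave 3993 in OO, and the 6 OO libraries alone gave 744. Without the 4 D. simulans libraries that stood apart, an alternative chosen after seeing the data that leaves 1 D. simulans OO library assumed to vary like the rest, the counts were 10 by current medium and 170 by previous medium, Drs gained a call (0.54, limma adjusted p = 0.0234), and Drsl1, Prx3, ND-49L, Mhc, GstE14, Eip55E, comr, Prosalpha6T and Lnk lost theirs. Without the 3 D. simulans libraries low in ple, also chosen after seeing the data and leaving 1 D. simulans OS library, they were 1308 in OS, 6 by current medium and 6 by previous medium, etaTry changed sign (0.11), Jon65Aiii gained a call, and Treh, CG6296, Prx3, Lsp1gamma, Hex-C, ple, twe, Mhc, pirk, Tab2 and Lnk lost theirs.

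With FPKM as deposited the log2 difference changed sign for etaTry (0.46), Treh (0.045), Prx3 (0.39), ND-49L (0.081), SdhA (0.11), modSP (0.11), Tl (0.18), Tab2 (0.32), ImpL2 (0.091), Eip55E (0.24), usp (0.46), nSyb (0.17), comr (0.0057), S6k (0.30) and Lnk (0.43). With equal totals it changed sign for AttC (-0.64), Drs (-0.64), Jon65Aiii (-0.24), Catsup (-0.26), Wdr24 (-0.51), GNBP2 (-0.14), pirk (-0.27), grass (-0.37), GstE13 (-0.057), GstE9 (-0.18), GstT1 (-0.15) and yellow-d (-0.063), and without the 4 libraries for Jon65Aiii (-0.0080). The changed sign was itself called for etaTry, Prx3, usp and Lnk as deposited and for Drs, Catsup, Wdr24 and grass with equal totals. Leaving out 1 library moved AttC between -0.21 and 0.57 and Drs between -0.0012 and 0.28. The cause was not tested. Calls were also lost without a change of sign for 22 named genes with FPKM as deposited and 16 with equal totals. With hybrid libraries in the fit 18 were lost: AttD, CG6296, Prx3, ND-49L, Mst98Cb, Mlc2, Osi6, Ir76a, Tl, Tab2, GstE14, ImpL2, usp, nSyb, comr, S6k, Lnk and that of Wdr24 by previous medium. Without media history Prx3, ple, Mhc, Mlc2 and usp lost theirs, and with weights per species Hex-C and Mhc did. A pseudocount of 0.1 added calls for Est-6 and Wdr24.

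Small gene group counts moved too. Without the 4 libraries that stood apart the counts were 3 lower for lipases, 3 lower for tracheal and tubule markers, 4 lower for sugar digestion and for fatty acid synthesis, 2 higher and 3 lower for insulin and TOR, and 0 higher for storage proteins. Without the 3 low in ple they were 2 higher for the peritrophic matrix list, UDP-glycosyltransferases, midgut and epidermal markers, 1 higher for fatty acid synthesis, 0 higher for storage proteins, 1 lower for lipases and oxidative stress, 2 lower for the remaining respiratory chain and 3 lower for cytosolic ribosomal proteins.

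Replicate numbers did not pair the species: over 12 same-numbered pairs the correlation of deviations from group means ran from -0.23 to 0.32, with 4 over 0.1, and 5 of 12 D. sechellia libraries correlated best with their own number. A replicate block gave 4501 genes over all histories, 2612 in SS, 3071 in SO, 2345 in OS, 1878 in OO, 1 for each medium and 3668 for larvae against adults, and among named genes it ended the calls of Hex-C, Mlc2 and Lnk. Depth could not be read from steps in low values, so no limit of detection is given.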
